A study of Homo sapiens with 2 samples.

Results

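The genes described here were long intergenic non-coding RNA genes of the colon cancer cell line HCT116, named LINC followed by digits only, for which no mock-treated cell held more than 2 UMIs while DAC-treated cells held 50 UMIs or more in total. A UMI (unique molecular identifier) count is the number of tagged RNA molecules counted for a gene in a cell. Of 33538 genes in the count tables, 1793 had such a name, and 112 (6.25%) passed both limits, beside 2876 (8.58%) of all genes. The members were thus selected on their UMIs in the same 2 libraries, and their number and the difference between the libraries are given below as a description only.

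Single cell RNA sequencing libraries were available for mock-treated and DAC-treated HCT116, 1 library each. HCT116 is an established human colorectal cancer line, and DAC (decitabine) is a cytidine analog that blocks the enzymes that copy DNA methylation at cell division. It was given at 0.5 μM on days 1 and 3, drug-free medium followed on day 5, and cells were harvested on day 7. Mock-treated cells of the same line, without DAC, were the control. The tables held 1783 mock-treated cells with 49911689 UMIs and 1751 DAC-treated cells with 59046165 UMIs, at medians of 27899 and 35340 UMIs per cell. Since each condition was 1 library, there was no replicate error, no test was made, and all intervals below are exact 95% intervals that cover counting error only.

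Long intergenic non-coding RNAs are transcribed from their own promoters between protein-coding genes, are usually spliced, and code for no protein. Many are restricted to 1 tissue or to a developmental stage and are present at few copies per cell. In colon cancer cells, CpG-rich promoters of some non-coding RNA genes are methylated, and a demethylating drug can be followed by transcription from them.

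The label "silent in mock-treated cells" held for a minority of the 112 genes. No mock UMI was found for 25 genes, 1 to 9 mock UMIs for 21, 10 to 49 for 34, and 50 or more for 32, with a median of 16.5 and a highest value of 182. A limit on the UMIs per cell therefore also admitted genes present at 1 or 2 UMIs in up to 9.53% of mock-treated cells. In 52 of the 112 genes at least 1 mock-treated cell reached 2 UMIs. Below, the genes are therefore called by their limit and not silent. The remaining LINC genes were 873 without a UMI in either library, 64 over the mock limit, and others with fewer than 50 DAC UMIs.

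The RefSeq promoter table used here held a window under the symbol of 65 of the 112 genes, and *LINC00958* and *LINC01694* were among the other 47. The entries are windows of 300 bases, from 250 bases before to 50 bases after the transcription start, in build GRCh38.p14. The windows of 5 genes are shown because their CG content differs widely among genes with few mock UMIs or none: 4 were the genes with the most DAC UMIs among those with a ratio of 10 or more and a start near that of GENCODE, and *LINC01896* was the gene with a window that had the most UMIs per positive cell. CG dinucleotides, the sites of DNA methylation, are in capitals. *LINC02434* (chr4:188159803-188160102, plus strand) held 23 CG, *LINC00665* (chr19:36331704-36332003, minus strand) 15, *LINC02473* (chr4:24659650-24659949, plus strand) 1, *LINC00667* (chr18:5237850-5238149, plus strand) 38, and *LINC01896* (chr18:78979642-78979941, minus strand) 59.
LINC02434: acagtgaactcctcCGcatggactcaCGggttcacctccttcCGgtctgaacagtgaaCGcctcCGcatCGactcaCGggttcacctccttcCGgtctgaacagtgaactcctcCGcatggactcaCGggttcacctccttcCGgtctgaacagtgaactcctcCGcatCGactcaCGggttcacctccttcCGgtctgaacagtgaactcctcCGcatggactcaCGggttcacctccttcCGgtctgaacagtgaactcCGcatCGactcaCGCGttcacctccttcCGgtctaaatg
LINC00665: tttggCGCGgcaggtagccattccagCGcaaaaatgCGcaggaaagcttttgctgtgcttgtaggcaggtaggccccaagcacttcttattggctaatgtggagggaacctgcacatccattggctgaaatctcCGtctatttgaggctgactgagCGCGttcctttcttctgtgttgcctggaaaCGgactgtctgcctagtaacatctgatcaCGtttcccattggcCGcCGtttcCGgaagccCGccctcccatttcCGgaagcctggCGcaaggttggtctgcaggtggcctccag
LINC02473: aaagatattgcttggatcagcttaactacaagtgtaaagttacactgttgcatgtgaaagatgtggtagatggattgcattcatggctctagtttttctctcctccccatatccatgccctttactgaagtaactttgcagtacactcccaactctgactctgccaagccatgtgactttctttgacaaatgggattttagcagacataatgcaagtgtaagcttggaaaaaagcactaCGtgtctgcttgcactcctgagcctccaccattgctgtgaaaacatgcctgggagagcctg
LINC00667: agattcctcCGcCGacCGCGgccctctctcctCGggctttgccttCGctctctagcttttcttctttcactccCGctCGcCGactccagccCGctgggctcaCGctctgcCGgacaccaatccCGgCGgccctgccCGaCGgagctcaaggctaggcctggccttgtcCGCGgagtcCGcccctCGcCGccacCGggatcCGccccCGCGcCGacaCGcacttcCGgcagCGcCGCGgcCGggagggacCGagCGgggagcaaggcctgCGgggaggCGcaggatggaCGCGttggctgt
LINC01896: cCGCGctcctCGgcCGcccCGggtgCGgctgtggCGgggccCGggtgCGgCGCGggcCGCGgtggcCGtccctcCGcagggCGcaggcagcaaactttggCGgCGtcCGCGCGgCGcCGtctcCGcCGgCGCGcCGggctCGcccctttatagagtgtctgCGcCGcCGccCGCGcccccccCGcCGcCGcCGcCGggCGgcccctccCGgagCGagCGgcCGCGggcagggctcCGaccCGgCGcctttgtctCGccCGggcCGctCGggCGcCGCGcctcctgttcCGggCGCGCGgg

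The *LINC02434* window was made of a tandem repeat: shifted by 50 bases, 85.2% of its letters matched themselves, against 31.9 to 44.2% at the best shift of the other 4 windows. *LINC02473*, with a single CG, and *LINC01896*, with 59, both had no mock UMI. Over the 65 windows the median was 8 CG, from 0 in *LINC02240* to 59 in *LINC01896*, and 18 windows (27.7%) held 20 CG or more. The transcription start of the *LINC02240* window lay 684280 bases from that in GENCODE, and that of the *LINC01896* window 617 bases. Over the 49 windows with a start within 500 bases of GENCODE, the median was 9 CG, from 1 to 47. Of these windows, 28.6% held 20 CG or more. The other LINC genes of the same table had a median of 4 CG and 11.2% with 20 or more. Genes outside the LINC names that passed the same UMI limits had a median of 20 CG and 52.5%, and all genes of the table a median of 13 and 41.0%. The LINC genes with a ratio of 4 or more and those below it had medians of 7 and 14 CG. CG content was not used to select the genes, but methylation was not measured in these libraries.

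In total, the 112 genes had 4203 UMIs in the mock library and 20820 in the DAC library, which was 0.00842% and 0.0353% of all UMIs. The ratio of their CPM (UMIs divided by all UMIs of the library, times 1e+06) was 4.19 (95% interval 4.05 to 4.33). *LINC00958*, a non-coding RNA studied in bladder and other cancers, held 23.1% of the DAC UMIs, and without it the ratio was 3.22 (3.11 to 3.33). The 15 genes with the most DAC UMIs held 52.4%. The 64 LINC genes over the mock limit had 22495 mock and 19548 DAC UMIs, a ratio of 0.735 (0.721 to 0.749). These directions follow in part from the limits used to select the genes.

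A CPM ratio of 4 or more was found for 57 of the 112 genes (50.9%), where a mock count of 0 was replaced by a floor of 3 counts over the library. The exact two-sided interval of a count of 0 reaches 3.69 counts, with which the lower limits given below would be smaller. The same was found for 39.6% of the 2764 genes without a LINC name that passed the same limits, and for 9.46% of all genes with 50 DAC UMIs or more. A ratio under 1 was found for 16 of the 112 genes (14.3%) and for 16.3% of the 2764 genes. The median log2 ratio was 2.08 for the 112 genes and 1.26 for the 2764 genes. With a scaling by the median of ratios over genes with a UMI in both libraries, which lowered log2 ratios by 0.24, 54 genes had a ratio of 4 or more and 20 a ratio under 1.

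**Figure D1:**
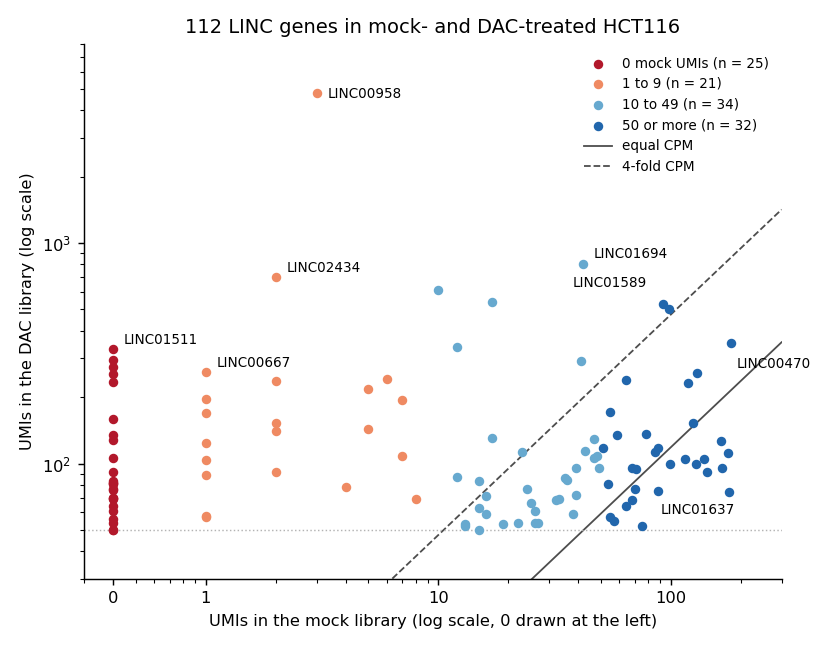
UMIs of the 112 LINC genes in the mock library (horizontal axis, log scale, genes at 0 drawn at the left) and in the DAC library (vertical axis, log scale), 1 point per gene, colored by mock UMIs. The solid and dashed lines mark equal CPM and a 4-fold CPM ratio, and the dotted line marks the lower limit of 50 DAC UMIs. *LINC00958* stood above all others at 4813 UMIs, and 16 genes at the right lay below the line of equal CPM.

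The highest levels were those of *LINC00958*. This gene lies at chr11:12961541-12989597 on the minus strand (hg38, GENCODE 44), 16804 bases from *TEAD1*, a transcription factor of the Hippo pathway on the opposite strand. In the mock library 3 cells each held 1 UMI of it, and in the DAC library 890 cells held 4813 UMIs (4678 to 4951), a CPM ratio of 1356 (464 to 6578). The highest DAC-treated cell held 66. *TEAD1* had 1883 mock and 2320 DAC UMIs, a ratio of 1.04 (0.980 to 1.11).

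The next 4 genes by DAC UMIs had between 540 and 807. *LINC01694* (chr21:45590771-45603088, plus strand) had 42 UMIs in 38 mock-treated and 807 in 452 DAC-treated cells, a ratio of 16.2 (11.9 to 22.7). *LINC02434*, a gene with a single exon at chr4:188159705-188161157 that carries the repeat shown above, had 2 UMIs in 2 mock-treated and 700 UMIs in 436 DAC-treated cells, a ratio of 296 (81.6 to 2448). *LINC00665* (chr19:36259540-36331770, minus strand), within a cluster of zinc finger genes on chromosome 19, had 10 UMIs in 10 mock-treated and 612 UMIs in 320 DAC-treated cells, a ratio of 51.7 (27.9 to 108). *LINC00624* (chr1:147258885-147517875, minus strand), which overlaps *CHD1L* on the opposite strand, had 17 UMIs in 16 mock-treated and 540 UMIs in 330 DAC-treated cells, a ratio of 26.9 (16.6 to 46.4). All 4 were found in a larger share of DAC-treated cells than of mock-treated cells, and the intervals of these ratios lay above 10.

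The remaining 10 of the 15 genes with the most DAC UMIs fell into 3 kinds by their mock level. Without a mock UMI were *LINC01511* with 331 DAC UMIs in 162 cells, *LINC01287* with 296 in 125 cells, and *LINC02473* with 273 in 175 cells. With the floor of 3 mock counts, these were at least 93.3-, 83.4- and 76.9-fold higher in the DAC library. At low mock levels, *LINC00667* had 1 mock and 260 DAC UMIs, *LINC02087* had 12 and 339, and *LINC01615* had 41 and 293. At higher mock levels, *LINC01589* had 93 and 531 UMIs, a ratio of 4.83 (3.87 to 6.08), and *LINC01426*, next to *RUNX1*, 98 and 502, a ratio of 4.33 (3.48 to 5.43). *LINC00470* had 182 and 353 UMIs, a ratio of 1.64 (1.37 to 1.97), and *LINC00857*, a gene studied in lung cancer, 130 and 258, a ratio of 1.68 (1.35 to 2.09). The last 4 were thus among the most abundant of the set in DAC-treated cells while also present in 89 to 170 mock-treated cells.

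The 25 genes without a mock UMI had 3036 DAC UMIs in total. In addition to the 3 above they were *LINC00501* (256 DAC UMIs), *LINC02476* (235), *LINC02240* (159), *LINC02104* (135), *LINC02377* (128), *LINC01205* (106), *LINC02432* (92), *LINC01160* (83), *LINC01447* (82), *LINC01647* (82), *LINC01413* (81), *LINC01300* (77), *LINC01029* (76), *LINC01091* (70), *LINC00200* (70), *LINC01474* (69), *LINC01087* (64), *LINC01524* (61), *LINC01896* (56), *LINC00165* (54), *LINC00334* (50) and *LINC01152* (50). With the floor of 3 mock counts they were at least 14.1- to 93.3-fold higher, with a median lower limit of 23.1. Their median share of DAC-treated cells was 3.60%. A count of 0 in the mock library allows a share of up to 0.168% of cells with a UMI by the same floor, or 0.207% by the exact interval. The genes listed here were chosen for a mock count of 0, so this contrast was set by the choice. A DAC-treated cell with 3 UMIs or more was found for 19 of the 25, a count that was not set beside other genes.

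The other strata were cut on mock UMIs, the denominator of the ratio, so the order of their ratios follows from the cut and is a description. The 21 genes with 1 to 9 mock UMIs had a median ratio of 59.6 and a median of 5.60% of DAC-treated cells. The 34 genes with 10 to 49 mock UMIs had a median ratio of 2.34 and 3.80% of cells. The 32 genes with 50 mock UMIs or more had a median ratio of 0.982 and 5.54% of DAC-treated cells beside 4.71% of mock-treated cells.

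Among the genes with a ratio under 1, which were named after their values were seen, *LINC01637* had 178 UMIs in 164 mock-treated and 74 in 69 DAC-treated cells, a ratio of 0.351 (0.264 to 0.463). *LINC01807* had 166 and 95 UMIs, a ratio of 0.484 (0.372 to 0.626). *LINC00847* had 176 and 112 UMIs, a ratio of 0.538 (0.421 to 0.686). These genes passed the selection because no mock-treated cell exceeded 2 UMIs, although their mock UMIs were more numerous than their DAC UMIs.

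At the lower limit of the DAC library, *LINC00334*, *LINC01152* and *LINC01303* were just inside with 50 UMIs. *LINC01521* and *LINC01060* with 49 and *LINC02522* with 48 were just outside. At the mock limit, *LINC00470*, *LINC01637* and *LINC00847* had the most mock UMIs of the genes inside, at 182, 178 and 176. *LINC01186*, *LINC01290* and *LINC01759* were just outside, since 1 mock-treated cell or more held 3 UMIs, with 24, 44 and 73 mock UMIs in total. These 3 were the genes with the fewest mock UMIs among 23 whose highest mock-treated cell held 3, and each had fewer mock UMIs than the 3 genes inside.

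A UMI was found in 0.685 to 50.8% of DAC-treated cells, with a median of 4.88% per gene, and in 0 to 9.53% of mock-treated cells, with a median of 0.897%. *LINC00958* was found in 50.8% of DAC-treated cells (48.5 to 53.2%) and in 0.168% of mock-treated cells (0.0347 to 0.491%). *LINC01694* followed at 25.8% (23.8 to 27.9%) and *LINC02434* at 24.9% (22.9 to 27.0%), and these intervals overlapped. *LINC01426* at 19.7%, *LINC00624* at 18.8% and *LINC00665* at 18.3% also had overlapping intervals. *LINC01896* was found in the smallest share of cells, 12 cells or 0.685% (0.355 to 1.19%). A cell line holds no cell type that should lack these genes. The mock-treated cells were in another library, and the selection capped their UMIs. How many DAC-treated cells had a UMI from free RNA was thus not measured. A cell with a single UMI is therefore counted as positive with no background to set it against.

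UMIs per positive cell, the mean over cells with at least 1 UMI, had a median of 1.12 and ranged from 1.02 to 5.41. *LINC00958* was highest at 5.41, followed by *LINC01896* at 4.67, *LINC01554* at 3.05, *LINC02158* at 2.87 and *LINC01287* at 2.37. The lowest were *LINC01087*, *LINC01068*, *LINC00926*, *LINC01303* and *LINC02256*, all at 1.02, in each of which no cell exceeded 2 UMIs. In 74 of the 112 genes at least 1 DAC-treated cell held 3 UMIs or more, and in 19 at least 1 held 10 or more. The other 38 genes stayed at 2 UMIs or fewer in every DAC-treated cell, the same limit that every mock-treated cell met. These counts were not set beside the 2764 other genes that passed the same limits, so they describe the members only.

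**Figure D2:**
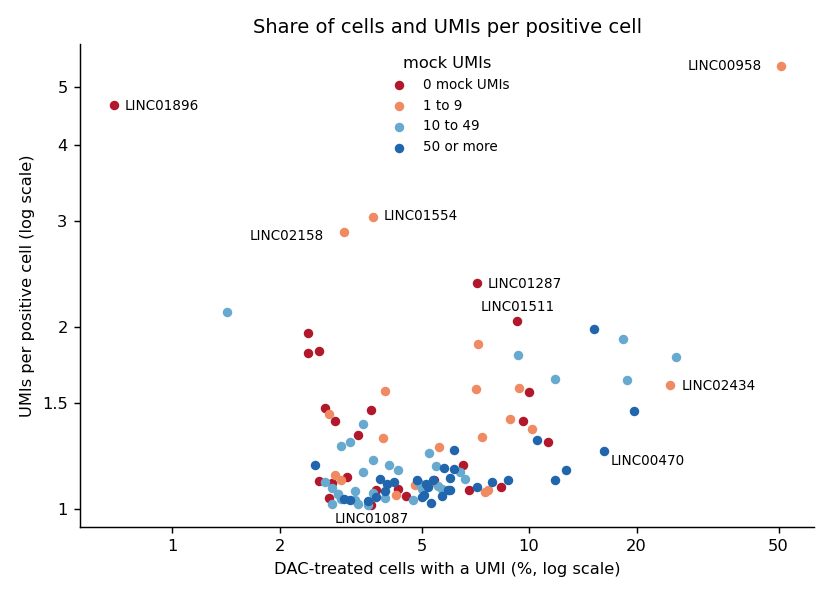
Percent of DAC-treated cells positive for each gene (horizontal axis, log scale) and UMIs per positive cell (vertical axis, log scale) for the 112 LINC genes, 1 point per gene, colored by mock UMIs. *LINC00958* was high on both axes at 50.8% and 5.41, while *LINC01896* reached 4.67 UMIs per positive cell in 0.685% of cells.

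Genes with a similar number of DAC UMIs differed in how many cells shared them. *LINC02158* (chr3:42770600-42773785, plus strand, named *CCDC13-AS2* in GENCODE 44) had 152 UMIs in 53 cells, and 35 of them (23.0%) were in a single cell. *LINC01554* (chr5:95838245-95860141, plus strand), a gene studied in liver cancer, had 195 UMIs in 64 cells, with 40 in a single cell. *LINC02583*, chosen as a contrast after its values were seen, had 144 UMIs in 134 cells. *LINC01287* had 296 UMIs in 125 cells, with 37 in a single cell.

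The number of positive cells was set beside the number that an even share would give, with each gene's UMIs drawn over DAC-treated cells in proportion to their total UMIs. An even share of the UMIs of *LINC00958* would reach 1279 cells, and 890 were observed. The observed number was 0.924 of the even share at the median over the 112 genes and 0.932 for *LINC00470*. It was 0.220 for *LINC01896*, 0.357 for *LINC01554*, 0.373 for *LINC02158* and 0.479 for *LINC01287*. The 18 highest cells (1% of DAC-treated cells) held 12.0% of the UMIs of *LINC00958*, 73.3% of those of *LINC01554* and 76.3% of those of *LINC02158*.

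Compared at similar numbers of DAC UMIs with the genes outside the LINC names that passed the same limits, the LINC genes had similar UMIs per positive cell. At 50 to 99 UMIs the medians were 1.10 over 60 LINC genes and 1.08 over 1198 other genes. At 100 to 199 UMIs they were 1.12 and 1.13, at 200 to 499 UMIs 1.41 and 1.25, and at 500 to 999 UMIs 1.71 and 1.81. The difference of these medians changed sign between neighboring ranges, and no test of it was made.

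**Figure D3:**
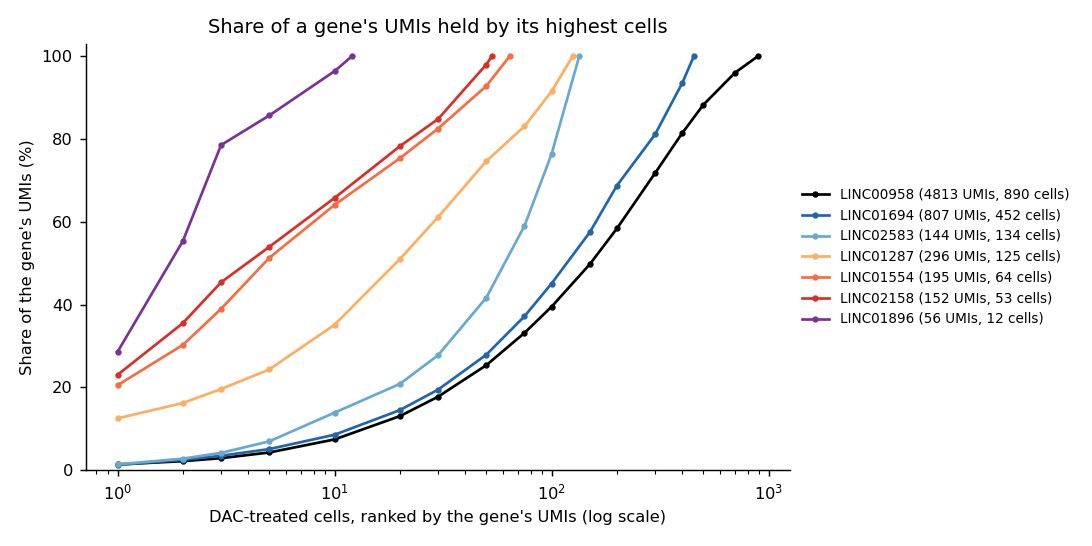
Cumulative share of a gene's UMIs (vertical axis, percent) in its highest DAC-treated cells, ranked by the gene's own UMIs (horizontal axis, log scale), for 7 of the LINC genes. The 3 highest cells held 78.6% of the UMIs of *LINC01896*, 45.4% for *LINC02158*, 39.0% for *LINC01554* and 2.89% for *LINC00958*.

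For *LINC00958*, 519 cells (29.6%, 27.5 to 31.8%) held 3 UMIs or more, 136 cells (7.77%) held 10 or more, and 9 cells (0.514%) held 30 or more. The 136 cells with 10 UMIs or more, 7.77% of all cells, carried 47.1% of the gene's UMIs. No mock-treated cell held more than 1 UMI of it. The selection itself had set a limit of 2 UMIs on mock-treated cells.

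The number of the 112 genes per cell had a median of 7 under DAC (quartiles 2 and 11, highest 32) and of 2 under mock treatment (quartiles 1 and 3, highest 13). At least 1 gene was found in 84.5% of DAC-treated cells (82.7 to 86.2%) and in 76.7% of mock-treated cells (74.7 to 78.7%). At least 1 gene at 3 UMIs or more was found in 735 DAC-treated cells, 42.0% (39.7 to 44.3%), and in 26.1% when *LINC00958* was left out. In mock-treated cells this share was fixed at 0 by the selection. In 302 DAC-treated cells 2 or more genes were at 3 UMIs, in 32 cells 5 or more, and in 1 cell 13.

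The number of genes per cell followed the depth of the cell. When DAC-treated cells were ranked by total UMIs and cut into 3 groups of 583 or 584 cells, the median was 1, 7 and 12 genes, at median totals of 2179, 35344 and 59133 UMIs. The members' summed CPM was 435, 340 and 353 in the same order. In mock-treated cells the medians were 0, 2 and 3 genes. When each cell was thinned to 1007 UMIs, with 138 shallower mock-treated and 214 shallower DAC-treated cells left out, a member was found in 28.4% of 1537 DAC-treated and 8.63% of 1645 mock-treated cells. These shares draw on the counts that chose the genes and are a description.

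Over 50% mitochondrial UMIs were found in 311 mock-treated and 319 DAC-treated cells, with median totals of 7889 and 11117 UMIs. In these cells the members had a summed CPM of 95.9 and 372, beside 83.6 and 351 in the other cells. Of the barcodes, 12 occurred in both libraries, and leaving those cells out gave a summed CPM ratio of 4.19. Doublets were neither called nor removed, and a cell with the UMIs of 2 cells would count as 1 cell here. Without the 5% of cells with the most UMIs the median was 6 genes per DAC-treated cell.

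**Figure D4:**
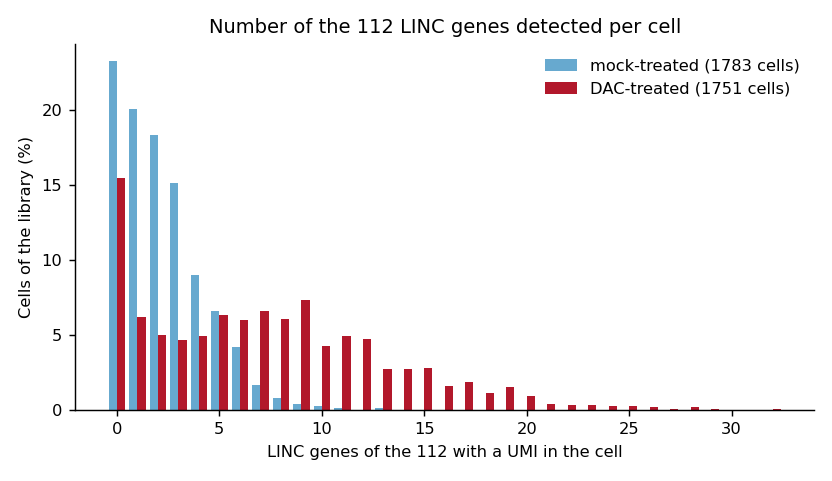
Number of the 112 LINC genes with a UMI in a cell (horizontal axis) and the share of cells of each library with that number (vertical axis, percent), for 1783 mock-treated and 1751 DAC-treated cells. The median was 2 and the highest value 13 in the mock library, beside 7 and 32 in the DAC library.

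Cells with several members at a high level also held many other genes of the same selection. The 32 cells with 5 or more members at 3 UMIs had a median of 528.5 genes outside the LINC names that passed the same limits, at a median total of 72057 UMIs. The median was 212 over all DAC-treated cells, at 35340 UMIs, and 227 over the 468 cells of the middle and upper depth groups without a member at 3 UMIs, at 39529 UMIs. These cells differed in depth, and its part in the numbers was not tested. The cell with 13 members at 3 UMIs or more held 792 such genes at 88666 total UMIs. Its members included *LINC01287* at 37 UMIs, *LINC00958* at 20, *LINC00944* at 10, and *LINC01602* and *LINC01554* at 7 each. Within the 3 depth groups of DAC-treated cells, the members' share of a cell's UMIs and the share of the other selected genes had Spearman coefficients of 0.31, 0.48 and 0.61 from the fewest to the most UMIs, over 584, 584 and 583 cells. Both shares have the same total as their denominator and come from 1 library.

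Co-detection was measured as the number of DAC-treated cells with both genes of a pair, divided by the number expected from the shares of both genes within 10 groups of cells by total UMIs. Of 6216 pairs of the 112 genes, 3634 had an expected number of 5 cells or more, with a median ratio of 1.07 (quartiles 0.895 and 1.27). Without depth groups the median was 1.53, so the ratio moved with the depth of the cells. The interval of the ratio included 1 for 3482 of the 3634 pairs, lay above 1 for 135 and below 1 for 17. Over pairs of genes that both had a CPM ratio of 4 or more, the median was 1.13, and over pairs of genes both under 4 it was 1.03. In the mock library 317 pairs had an expected number of 5 or more, with a median ratio of 1.03. Of these, 282 were pairs of genes both under 4, with a median of 1.03, and only 1 was a pair of genes both at 4 or more.

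*LINC00958*, the most widely detected of the genes, had a median ratio of 1.05 with the 109 members where at least 20 cells were expected, from 0.839 to 1.25. With *LINC01694* both were found in 321 cells and 296 were expected, and with *LINC02434* in 298 and 282. No interval of these 109 ratios excluded 1. Since *LINC00958* was found in 50.8% of DAC-treated cells, the shared cells are capped by the cells of the partner. For *LINC02473*, found in 175 cells, 134 were shared and 114 expected, a ratio of 1.17 (0.982 to 1.39). The intervals do not allow for this cap and are too wide here, so independence is not read from them.

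The highest ratios were those of *LINC01511* with 3 genes. It was found together with *LINC02158* in 18 cells where 5.18 were expected, a ratio of 3.47 (2.06 to 5.49), with *LINC01447* in 16 where 5.15 were expected, and with *LINC01554* in 22 where 7.96 were expected. *LINC02204* and *LINC01554* shared 15 cells with 5.52 expected, and *LINC02377* and *LINC02432* 14 with 5.39 expected. The lowest 5 ratios were pairs with 1 shared cell, namely *LINC02204* with *LINC02166*, *LINC02476* with *LINC01909*, *LINC00479* with *LINC00663*, *LINC01602* with *LINC01843*, and *LINC02562* with *LINC01976*, for which 5.67 to 7.56 were expected. These pairs were the extremes of 3634, and their intervals do not allow for that choice.

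**Figure D5:**
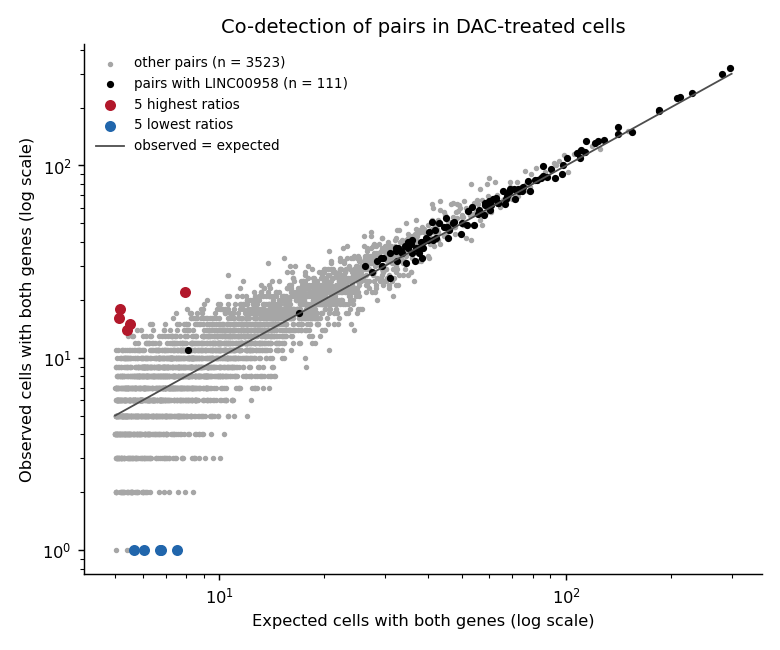
Expected (horizontal axis, log scale) and observed (vertical axis, log scale) numbers of DAC-treated cells with both genes of a pair, for 3634 pairs of LINC genes with an expected number of 5 or more. The line marks equal numbers. Pairs with *LINC00958* (black) lay close to the line, and the wide detection of this gene caps their ratios. The 5 highest and 5 lowest ratios are in red and blue.

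For the 5 members with the most DAC UMIs, the genes with the highest co-detection ratio among up to 12504 genes in 5% or more of DAC-treated cells were listed. For *LINC00958* they were *RIC3*, a chaperone of acetylcholine receptors, with 93 shared cells and 68.7 expected, *AP000593.3* with 105 and 82.0, and *NRXN2*, a neurexin, with 81 and 65.0. All 3 are on chromosome 11, as is *LINC00958*. For *LINC01694* they were *RBMXL3*, *TEX13C* and another member, *LINC00479*, with 80 shared cells and 53.2 expected, which like *LINC01694* is on chromosome 21. For *LINC02434* they were *AC015912.3*, *AC109322.1* and the member *LINC02473*, with 86 and 59.7, which like *LINC02434* is on chromosome 4. For *LINC00665* they were *ZNF529* and *ZNF677*, zinc finger genes of chromosome 19 as *LINC00665* itself, and *MAGEB6*, a cancer-testis gene of chromosome X. For *LINC00624* they were *AP001189.5*, *MAGEA10* and *TEX13D*. Each of these 15 genes was chosen for its ratio. The share of the compared genes on each chromosome is not given here, so nothing is read from the shared chromosomes in this list.

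Over all pairs of a member with a gene that passed the same UMI limits, the sum of observed numbers divided by the sum of expected numbers was 1.11 for 14340 pairs on 1 chromosome and 1.06 for 305196 pairs on different chromosomes, a comparison chosen after the values were seen. By distance the ratio was 1.19 under 1 Mb, 1.14 from 1 to 10 Mb, 1.12 from 10 to 50 Mb and 1.10 above 50 Mb. With genes outside the limits that were found in 2 to 30% of DAC-treated cells, the values were 1.04 on the same chromosome and 1.03 on others, and by distance 1.07, 1.05, 1.04 and 1.03 in the same order. The differences are small, the pairs share cells and depth, and no test was made.

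The position of the members in the genome was not used to select them. All 112 genes were placed by their identifier in GENCODE 44 (hg38) as lncRNA, 7 of them under another name. A gene that passed the same UMI limits lay within 20 kb of 21 of the 112 members (18.8%) and of 107 of 1654 placed LINC genes outside the selection (6.47%). This count of neighbors uses the UMI limits of the selection itself, the members *LINC01413* and *LINC00926* count each other, and of all LINC genes 873 had no UMI in either library, so nothing is read from the difference. An overlap with a gene on the same strand was found for 16 members and with a gene on the opposite strand for 40, and how the counting treated such reads is not given in the sources used here. The UMIs of these members are uncertain to that extent.

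Among the neighbors, *SALL3* was found with its member, *LINC01896*, in more cells than the depth groups gave. *SALL3* codes for a zinc finger transcription factor. It lies at chr18:78979818-79002677 on the plus strand, 744 bases from the start of *LINC01896* in GENCODE 44 (chr18:78976555-78979074, minus strand), with the pair transcribed away from each other, and its start falls within the *LINC01896* window shown above, the one with 59 CG. *SALL3* had no mock UMI and 75 DAC UMIs in 22 cells. Both genes were found in 5 cells, where 0.211 were expected, a ratio of 23.6 (7.68 to 55.2).

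The UMIs of *LINC01896* in its 12 cells were 16, 15, 13, 2, 2 and 2, and 1 in each of the other 6. The 3 highest cells held 44 of its 56 UMIs (78.6%) and, with 21, 10 and 14 *SALL3* UMIs, 45 of the 75 UMIs of *SALL3*. The cell with 8 *SALL3* UMIs held 2 of *LINC01896*. The 3 cells had 46531 to 72133 total UMIs and 3.44 to 30.01% mitochondrial UMIs, so they were not alike in these measures.

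Another member on chromosome 18, *LINC01029*, also without a mock UMI, lies 983 kb from *LINC01896*. It had 76 DAC UMIs in 42 cells and shared 6 cells with *LINC01896*, where 0.474 were expected, and 8 cells with *SALL3*, where 0.943 were expected. The ratios were 12.7 (4.64 to 27.5) and 8.48 (3.66 to 16.7). In the 3 cells with the most *LINC01896* the UMIs of *LINC01029* were 1, 4 and 1. These 3 genes were chosen after their values were seen, and the numbers of shared cells are small.

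Other close pairs had lower ratios. *LINC01413* and *LINC00926*, both members, 11369 bases apart on chromosome 15, were found together in 9 cells with 3.63 expected, a ratio of 2.48 (1.13 to 4.70). *LINC00165* and *PICSAR*, a non-coding RNA gene 4023 bases away with no mock and 589 DAC UMIs, shared 21 cells with 10.7 expected. *LINC02583* and *LINC01820*, 34962 bases apart, shared 14 cells with 9.43 expected, and the interval of their ratio included 1. Over 87 pairs of a member and a neighbor with an expected number of 5 or more, the median ratio was 1.04, from 0.632 to 2.05. This median was close to the 1.07 over pairs of members in general.

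Long non-coding RNAs with other names were set beside the members, from a list of 30 of which 21 were in the tables and 17 had 50 DAC UMIs or more. A ratio of 4 or more was found for 3 of the 17, *MEG3*, *MEG8* and *MEG9*, imprinted genes of 1 locus on chromosome 14 that also passed the UMI limits, and a ratio under 1 for 8, with a median of 1.09. *MEG3* had 2 mock and 11356 DAC UMIs and 12.3 UMIs per positive cell, above the 5.41 of *LINC00958*. *MALAT1*, an abundant nuclear RNA, had a ratio of 0.483. The large ratios of the members were thus shared by *MEG3*, a non-coding RNA without a LINC name.

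The cell line label was checked with marker genes. *EPCAM*, *KRT8*, *KRT18* and *CDH1*, epithelial genes, had 1152 to 101301 mock UMIs, whereas *CDX1*, *VIL1* and *LGALS4*, intestinal genes, had 0, 37 and 7. Of 11 markers of fibroblasts, leukocytes and endothelium, *COL1A1* had 533 mock and 1112 DAC UMIs and the others 0 to 10 mock and 5 to 128 DAC UMIs, with *COL1A2*, *DCN*, *PTPRC*, *CD3E*, *PECAM1* and *CDH5* at 0 in the mock library. Their part in the levels of the LINC genes was not tested.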

How the data were processed

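Mock- and DAC-treated HCT116 libraries (10x Genomics Chromium 3′ v3) were demultiplexed, mapped to hg38 and counted with Cell Ranger by the authors, who deposited UMI counts per gene and cell. The gene annotation release and any cell filter are not given in the sources used here. All deposited cells were used. UMIs were summed per library, and ratios are between CPM values computed here, with all UMIs of a library as denominator. Intervals for sums (Poisson), shares (Clopper-Pearson) and ratios (conditional binomial) are exact at the 95% level and cover counting error only. A mock count of 0 was replaced by 3 counts over the library. Expected co-detection was computed within 10 groups of cells by total UMIs. With 1 library per condition, no test was made. The code was tested on simulated data (Python 3.11.15, numpy 2.4.6, scipy 1.17.1, pandas 2.3.3).

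The members, the lists and the alternatives were chosen with earlier results of these data known. Named were the 15 members with the most DAC UMIs, the 5 with the most and the 5 with the fewest UMIs per positive cell, the members without a mock UMI, the 3 genes on each side of each limit, the 5 highest and 5 lowest pairs, and 3 partners of each of the 5 top members. Alternatives covered the depth and mitochondrial share of cells, the limits of the selection, the UMIs for detection, the depth groups and the scaling.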

Additional observations from a re-analysis of the deposited data

How the results depend on the processing

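No paired analysis was possible because each condition was 1 library. Of 72 values under alternatives, 42 stayed near the reported value and 30 moved further. Near meant within 1.5 times the reported count or median, or within the interval of the reported share or ratio. A turn in direction was checked only for the summed CPM ratio, which stayed above 1 wherever it had a value. The limits of the selection favor that side, so this is a description. The number of genes was 60 with 1 UMI or fewer in every mock-treated cell, 25 without a mock UMI, 205 at 20 DAC UMIs or more and 52 at 100 or more. The summed CPM ratio of 4.19 became 28.4 with 1 mock UMI or fewer per cell, 3.44 at 20 and 6.30 at 100 DAC UMIs or more, 3.55 with median-of-ratios scaling, 4.50 as the mean of the CPM of each cell, 4.04 without the 5% of cells with the most UMIs, 4.02 without cells over 20% mitochondrial UMIs and 3.22 without *LINC00958*. For the genes without a mock UMI it has no value, since their mock sum is 0 by choice. The median share of cells of 4.88% became 0.195% at equal depth, 6.61% without cells under 10000 UMIs or over 50% mitochondrial UMIs, 3.60% without a mock UMI, 2.74% at 20 and 7.28% at 100 DAC UMIs, and 0.514% and 0.0571% when detection required 2 and 3 UMIs. The members per DAC-treated cell, 7, became 0 at equal depth, 3 and 1 under the stricter mock limits, and 1 and 0 when detection required 2 and 3 UMIs. The percent of DAC-treated cells in which a member reached 3 UMIs, 42.0%, became 0.390% at equal depth, 39.3% without the 5% of cells with the most UMIs, 59.5% without cells under 10000 UMIs or over 50% mitochondrial UMIs, 37.1% and 7.71% under the stricter mock limits and 26.1% without *LINC00958*. The co-detection ratio, 1.07, stayed within 1.5 times under every alternative run for it, a band that also holds 1, the value without association. Its furthest values were 1.52 with 1 depth group and 1.27 when detection required 3 UMIs, so no stability is read from this band. The UMIs per positive cell, 1.12, cannot fall below 1 and were at 1 at equal depth, so no stability is read from them. At equal depth no pair reached an expected number of 5 cells, so the co-detection ratio has no value there. Leaving out *LINC00958* and leaving out shared barcodes were chosen after seeing the data. With cells as shallow as 500 UMIs, a gene without a UMI in a cell is not shown to be absent from it.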
